A study of Mus musculus with 16 samples.

Results

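The RNAs described here are 8 long noncoding RNAs of the mouse, namely the nuclear RNAs Malat1 and Neat1 and the snoRNA host RNAs Gas5, Snhg1, Snhg3, Snhg5, Snhg8 and Snhg12. They were followed in RAW264.7 cells, a macrophage-like mouse tumour line, with and without the adenosine analogue cordycepin and with and without LPS, the bacterial lipopolysaccharide that activates macrophages. A probe was taken when its gene name in the array files was one of these 8 names, which gave 11 probes of 55681. Of these, 9 probes for 7 genes were well above background on all 16 arrays. The probe for Snhg8 and a second probe for Snhg12 were well above background on none.

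The 4 conditions were DMSO (the solvent alone, 120 min), cordycepin (20 µM, 120 min), LPS+DMSO (DMSO for 120 min with LPS at 1 µg/ml in the last 60 min) and LPS+cordycepin (cordycepin for 120 min with LPS in the last 60 min). Each had 4 cultures and 4 arrays. Replicates with the same number were collected on the same day, replicates 1 and 2 were on slide 1, and replicates 3 and 4 were on slide 2. The cells are a single line grown in culture, and no donor or animal differs between the arrays.

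Malat1 and Neat1 are made by RNA polymerase II and stay in the nucleus, Malat1 at the nuclear speckles that hold splicing factors and Neat1 as the scaffold of paraspeckles. The 3′ end of Malat1 and of the long Neat1 form is cut by RNase P just upstream of a tRNA-like fold and protected by a triple helix, while the short Neat1 form ends at an ordinary polyadenylation site. snoRNA host RNAs carry small nucleolar RNAs in their introns, which guide the modification of ribosomal RNA. The spliced host RNAs are polyadenylated, reach the cytoplasm, and several of them, Gas5 first among them, are degraded by nonsense-mediated decay. Cordycepin is built into RNA in place of adenosine and stops the growth of poly(A) tails.

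The probes are 60 bases long and are shown because each value below is the signal of that stretch of RNA alone. Positions are those of the array files, on mm9. Each probe has the sequence of the RNA strand it reads, and capitals mark AATAAA or ATTAAA, the common polyadenylation signals.
Malat1, chr19:5795713-5795772, minus strand: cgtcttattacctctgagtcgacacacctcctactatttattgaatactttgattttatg
Neat1, chr19:5842564-5842623, minus strand: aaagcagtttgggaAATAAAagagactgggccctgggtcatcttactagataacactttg
Gas5 probe 1, chr1:162966369-162966428, plus strand: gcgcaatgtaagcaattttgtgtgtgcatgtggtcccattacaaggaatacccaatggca
Gas5 probe 2, chr1:162967350-162967409, plus strand: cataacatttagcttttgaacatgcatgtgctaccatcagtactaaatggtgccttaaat
Gas5 probe 3, chr1:162968608-162968667, plus strand: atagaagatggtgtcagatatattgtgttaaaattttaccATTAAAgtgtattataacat
Snhg1, chr19:8798913-8798972, plus strand: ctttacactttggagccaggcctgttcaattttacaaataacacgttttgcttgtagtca
Snhg5, chr9:88417150-88417209, minus strand: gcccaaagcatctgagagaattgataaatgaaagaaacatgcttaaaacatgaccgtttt
Snhg12, chr4:131866864-131866922, plus strand: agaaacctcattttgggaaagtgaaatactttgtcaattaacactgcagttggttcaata

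The 3 Gas5 probes lie in 5′ to 3′ order along the gene and are numbered in that order. The hexamer AATAAA or ATTAAA stood on the strand read in 2 of the 9 fitted probes (Neat1 and Gas5 probe 3), and in 17.8% of all 21597 probes fitted. On the other strand it stood in 1 of the 9 and in 6.64% of all. Whether a probe lies in an exon was not looked up, since no annotation of this build was used here.

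Between 37.1% and 51.2% of the spots on an array were well above background, 37.1% to 43.9% on slide 1 and 45.8% to 51.2% on slide 2, and no spot was saturated. Of 9 macrophage markers, 8 were well above background on all 16 arrays, including Cd68, Csf1r, Adgre1 and Spi1. All 4 epithelial and all 4 fibroblast markers fell short of this, and so did the 4 B cell markers, of which Ms4a1 was above background on no array. Of 4 endothelial markers Kdr was above background on all 16 arrays and Tek on none. Of 5 T cell markers, Cd3e, Cd4 and Lck were above background on all 16 arrays and Cd2 and Cd3g on none. The summed signal of the B cell markers was 71.3 to 139 in DMSO, cordycepin and LPS+DMSO and 332 to 1033 in LPS+cordycepin. Cd79a, the 1 B cell marker probe that entered the fit, was higher there than in LPS+DMSO (log2 change 2.63 ± 0.31 (SE)). It was not above background on all 16 arrays, so that its test is not counted. The part of the B cell marker signal in the results below was not tested.

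By the probes selected by name, cordycepin lowered the signal of 4 of the 7 measured RNAs in resting cells and of 4 in LPS-treated cells. None of these probes was called higher in any comparison. For Malat1, brighter probes on the same strand, described below, were not called. At rest, 6 of 9 probes fell (Neat1, Malat1, Snhg5 and all 3 of Gas5), where 7.05% of all probes fitted fell and 9.71% rose (16.8% either way). In LPS, 6 of 9 fell (Neat1, Snhg5, Snhg12 and all 3 of Gas5), beside 8.18% of all probes falling and 12.0% rising (20.2% either way). LPS in DMSO lowered 2 of 9 (Malat1 and Snhg5), beside 9.39% of all probes falling and 5.03% rising (14.4% either way). LPS in cordycepin lowered 4 of 9 (Malat1, Snhg5, Snhg12 and Gas5 probe 2), beside 4.50% falling and 3.38% rising (7.88% either way). The median log2 change of the 9 probes was -0.54 with cordycepin at rest, -0.68 with cordycepin in LPS, -0.15 with LPS and -0.49 with LPS in cordycepin, and over all probes it lay between -0.05 and 0.04.

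A change was called at an adjusted p under 0.05 in a limma fit of all 16 arrays, with p adjusted over the 21597 probes, and signals are log2 intensities after scaling each array. With a minimum of 2-fold added, 1 of 9 fell with LPS (Malat1), beside 2.71% of all probes falling and 2.15% rising, 2 with cordycepin at rest (Neat1 and Gas5 probe 2), beside 1.08% and 5.55%, 3 with cordycepin in LPS (those 2 and Snhg5), beside 1.61% and 7.11%, and 1 with LPS in cordycepin (Snhg5), beside 1.35% and 1.64%. Scaled to spiked-in control probes instead, the calls that held were those of Malat1 with LPS, Neat1 with cordycepin at rest, Neat1, Snhg5 and Gas5 probe 2 with cordycepin in LPS, and Snhg5 with LPS in cordycepin. The 3 Gas5 probes report on 1 gene and are not independent. Comparisons that share a condition also share its arrays, so their values stand side by side and are not separate evidence. In these bulk cultures a smaller share of cells that hold an RNA and less of that RNA per cell cannot be told apart. Because the labelling reaction primes on poly(A), less RNA and RNA with a shorter tail cannot be told apart either, for RNAs that carry a tail. For Malat1 and the long Neat1 form, which end in a triple helix, what the reaction primed on was not measured.

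**Figure D1:**
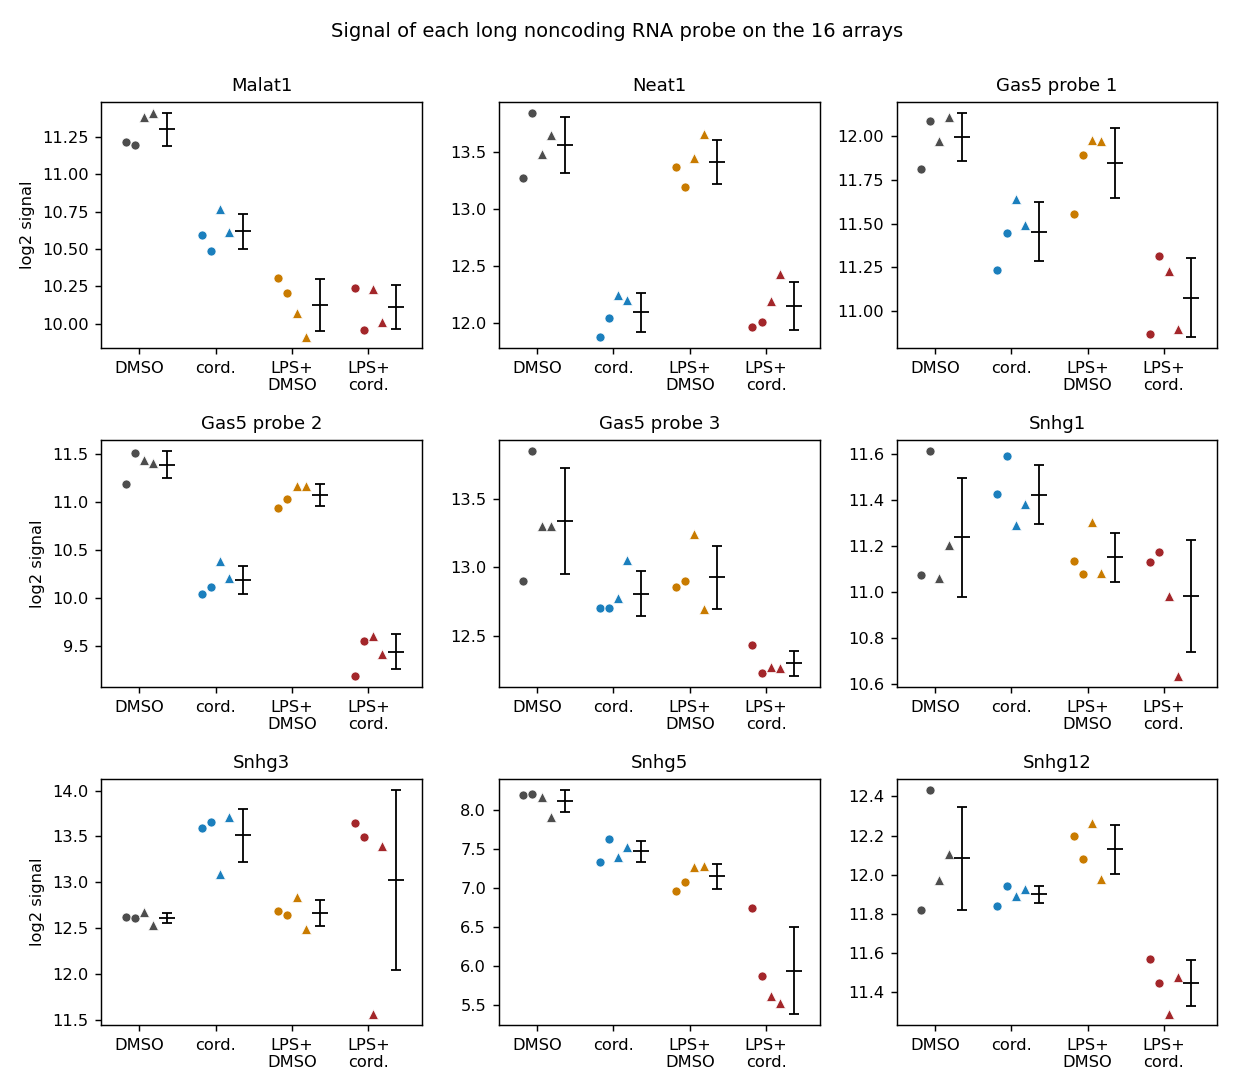
Each panel plots the log2 signal (y axis) of 1 probe in the 4 conditions (x axis, cord. for cordycepin). Circles are arrays of slide 1 and triangles arrays of slide 2, in replicate order, and the bar is the mean with 1 SD of 4 arrays. Neat1 stands between 13.19 and 13.84 without cordycepin and between 11.88 and 12.43 with it, and 1 Snhg3 array in LPS+cordycepin stands apart at 11.56. The y axes differ between panels and do not start at 0.

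Neat1, the paraspeckle scaffold, fell with cordycepin and gave no called change with LPS. Its log2 signal was 13.27, 13.84, 13.48 and 13.64 in DMSO replicates 1 to 4 and 11.88, 12.05, 12.25 and 12.21 in cordycepin. It was 13.36, 13.19, 13.45 and 13.65 in LPS+DMSO and 11.97, 12.02, 12.20 and 12.43 in LPS+cordycepin. All 8 arrays with cordycepin lay below all 8 without it, with or without LPS.

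At rest Neat1 fell 2.75-fold (log2 change -1.46 ± 0.14 (SE), 95% confidence interval -1.77 to -1.16, adjusted p = 2.42e-06, limma). In LPS it fell 2.39-fold (-1.26 ± 0.14, -1.56 to -0.95, adjusted p = 7.82e-06). The fall at rest was 1.59 on slide 1 and 1.33 on slide 2, and it was called under all 13 alternatives and in all 20 leave-out fits, each of which drops a replicate number or a single array. LPS gave no called change in Neat1, in DMSO (-0.15 ± 0.14, interval -0.45 to 0.16, adjusted p = 0.613) or in cordycepin (0.06 ± 0.14, -0.25 to 0.36, adjusted p = 0.912).

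The array also carries 5 probes named NEAT1, which the gene name did not select and which were taken in afterwards for their position. They lie on the same strand around the Neat1 probe, 2631 to 2883 bases from the 5′ end of the 3170-base unit that the array design gives for the RNA. All 5 fell with cordycepin at rest (log2 change -1.56 to -1.43, adjusted p = 8.94e-07 to 1.68e-06, limma) and in LPS (-1.43 to -1.32, adjusted p = 1.36e-06 to 3.53e-06). None changed with LPS (-0.11 to 0.01, lowest adjusted p = 0.727).

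A further 3 probes of the same strand lie 10560 to 10874 bases from that 5′ end, well beyond the short unit and in a stretch that the long Neat1 form is known to run through. The farthest of them is shown for comparison with the Neat1 probe.
Neat1 downstream probe, chr19:5834543-5834602, minus strand: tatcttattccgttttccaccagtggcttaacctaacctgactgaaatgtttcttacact

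Its log2 signal was 12.00, 11.85, 12.02 and 11.63 in DMSO, 12.73, 12.93, 13.03 and 13.47 in LPS+DMSO, 10.67, 10.87, 11.52 and 11.07 in cordycepin, and 11.44, 11.69, 12.20 and 11.58 in LPS+cordycepin. LPS+DMSO lay above all other conditions and cordycepin below DMSO. The probe rose 2.24-fold with LPS (log2 change 1.17 ± 0.20 (SE), adjusted p = 0.000866, limma), fell with cordycepin at rest (-0.84 ± 0.20, adjusted p = 0.00792) and fell in LPS (-1.31 ± 0.20, adjusted p = 0.00016).

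All 3 downstream probes rose with LPS (log2 change 0.85 to 1.22, adjusted p = 0.000561 to 0.0255, limma), while the Neat1 probe and the 5 NEAT1 probes were not called. The test compares each probe with itself, and the difference between the near and the far probes was not tested. The smallest of these 3 rises was called in 13 of 20 leave-out fits, and the other 2 in all 20. It was lost without replicate 2 or 4, DMSO replicate 2 or 4, or LPS+DMSO replicate 2, 3 or 4 (log2 change down to 0.58, adjusted p up to 0.251). Scaled to spiked-in control probes, none of the 3 was called (0.75 to 1.12, adjusted p = 0.147 to 0.702), and with no filter on dim probes the smallest was not (adjusted p = 0.119). In cordycepin, LPS raised 1 of the 3 (0.70 ± 0.20, adjusted p = 0.0478), a call that held in 4 of those 20 fits.

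Of 13 probes on the opposite strand of Neat1, 9 were fitted. Of these 9, 2 were well above background on all 16 arrays, and the others on fewer, so that they are not counted. Of the 2, A_30_P01020677 fell with cordycepin at rest and in LPS (log2 change -1.11 and -1.39, adjusted p = 0.0154 and 0.00261, limma).

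**Figure D2:**
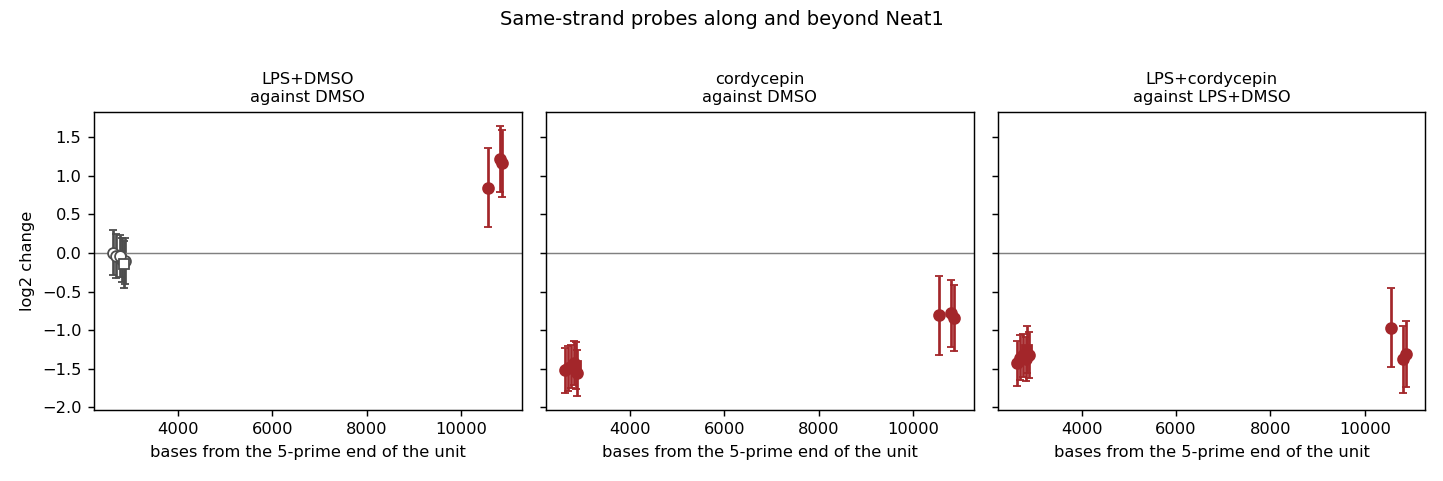
The log2 change (y axis) of 9 probes on the Neat1 strand is plotted against the distance in bases from the 5′ end of the unit given by the array design (x axis), for LPS, cordycepin at rest and cordycepin in LPS. Squares are the Neat1 probe, circles other probes, filled red symbols changes called, and bars 95% confidence intervals. The 6 probes near 2631 to 2883 bases sit near 0 with LPS and below -1.2 with cordycepin, and the 3 beyond 10560 bases sit above 0.8 with LPS.

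Malat1, the speckle RNA, fell at the probe of that name with LPS and with cordycepin at rest. Brighter probes farther 5′ on the same strand, described below, were not called in any comparison. The log2 signal of the Malat1 probe was 11.22, 11.20, 11.39 and 11.41 in DMSO and 10.31, 10.21, 10.07 and 9.91 in LPS+DMSO. It was 10.60, 10.49, 10.77 and 10.61 in cordycepin and 10.24, 9.96, 10.23 and 10.01 in LPS+cordycepin. DMSO lay above the 3 other conditions, cordycepin came next, and the 2 LPS conditions overlapped.

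LPS lowered the Malat1 probe 2.27-fold (log2 change -1.18 ± 0.11 (SE), 95% confidence interval -1.41 to -0.95, adjusted p = 1.49e-06, limma), by 0.95 on slide 1 and by 1.41 on slide 2, as a fall in each replicate pair. This held under all 13 alternatives and in all 20 leave-out fits. Cordycepin lowered it 1.61-fold at rest (-0.68 ± 0.11, -0.91 to -0.46, adjusted p = 0.000233). In LPS, cordycepin gave no called change (-0.01 ± 0.11, -0.24 to 0.22, adjusted p = 0.969).

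In cordycepin the fall of the Malat1 probe with LPS was 1.42-fold (-0.51 ± 0.11, adjusted p = 0.00646, limma), and without replicate 3 or 4 it missed the threshold (adjusted p = 0.0735 and 0.0544). The interaction (the difference between the LPS changes with and without cordycepin) was 0.67 ± 0.15 (adjusted p = 0.0686). With the slide as a block it passed (adjusted p = 0.0469). No member probe passed the interaction test without a block, 3 of 9 had an unadjusted p under 0.05, and 0.519% of all probes passed (0.273% higher and 0.245% lower, or 0.194% and 0.148% at 2-fold or more).

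The Malat1 probe lies 6899 bases from the 5′ end of the unit of 6982 bases in the array design, at the 3′ end of that unit. Where the probe lies relative to the RNase P cut was not looked up. A probe named NEAT2, an older name of Malat1, has the same sequence and differed from it by a median of 0.05 and at most 0.20 on the log2 scale over the arrays. The same strand holds 11 fitted probes in all, found by position after the values of the Malat1 probe were known. A probe near the 5′ end is shown for comparison.
Malat1 5′ probe, chr19:5802267-5802326, minus strand: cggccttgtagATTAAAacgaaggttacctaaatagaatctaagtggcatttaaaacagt

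Its log2 signal was 16.22, 16.74, 16.02 and 15.97 in DMSO, 15.95, 15.91, 16.13 and 15.66 in LPS+DMSO, 15.92, 16.14, 16.10 and 16.01 in cordycepin, and 15.83, 16.24, 15.65 and 15.33 in LPS+cordycepin. All 4 conditions overlapped. The log2 change with LPS was -0.32 ± 0.19 (SE) (interval -0.72 to 0.08, adjusted p = 0.323, limma) and that with cordycepin at rest was -0.19 ± 0.19 (-0.60 to 0.21, adjusted p = 0.567).

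The 5 probes at the 3′ end of the unit, 6779 to 6899 bases along, all fell with LPS (log2 change -1.23 to -1.14) and all fell with cordycepin at rest (-0.86 to -0.66). Their mean log2 signals in DMSO were 10.67 to 11.32, against 13.71 to 17.74 for the 6 other probes. Which form of the RNA each set reads was not tested. The 3 probes 4051 to 4356 bases along had changes of -0.16 to -0.13 with LPS and -0.24 to -0.14 with cordycepin, and the 3 probes 345 to 482 bases along -0.32 to -0.23 and -0.19 to -0.12. None of these 6 passed the test in any comparison (lowest adjusted p = 0.192, limma), their intervals are wider, and the difference from the 3′ probes was not tested. In LPS, cordycepin changed none of the 11. On the opposite strand 3 probes were fitted and none changed.

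**Figure D3:**
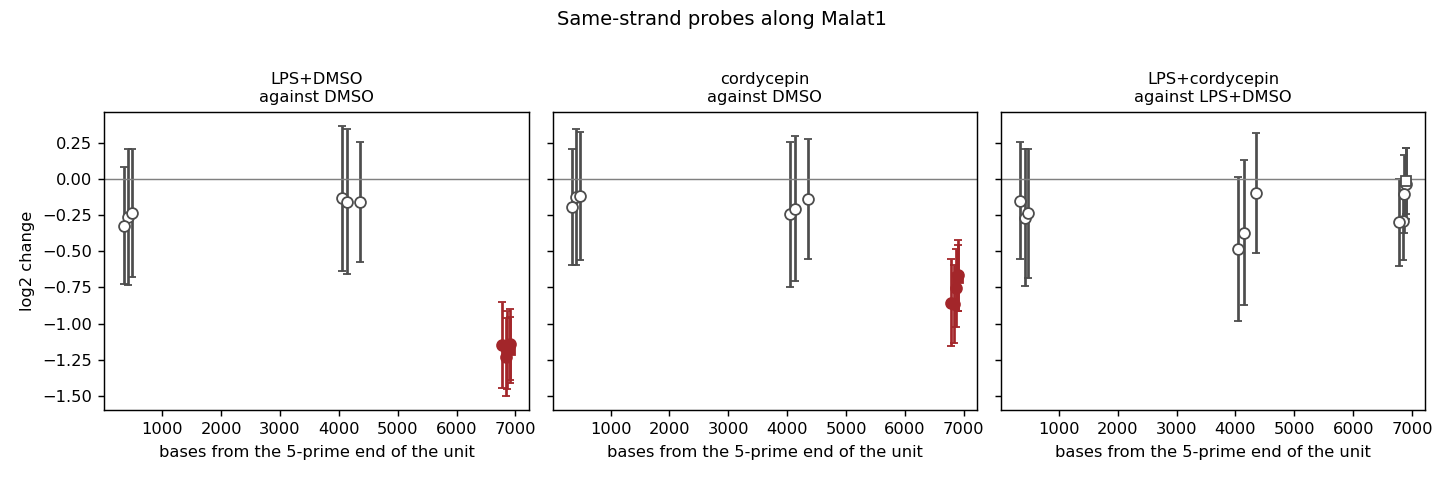
The log2 change (y axis) of 11 probes on the Malat1 strand is plotted against the distance in bases from the 5′ end of the unit (x axis), for LPS, cordycepin at rest and cordycepin in LPS. The square is the Malat1 probe, circles are other probes, filled red symbols are changes called and bars are 95% confidence intervals. With LPS the 5 probes at 6779 to 6899 bases sit at -1.23 to -1.14 and the 6 others at -0.32 to -0.13.

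Gas5, a host of many C/D box snoRNAs and a classic target of nonsense-mediated decay, fell with cordycepin at all 3 probes. Probe 2, in the middle, had log2 signals of 11.19, 11.51, 11.44 and 11.41 in DMSO, 10.04, 10.11, 10.38 and 10.21 in cordycepin, 10.93, 11.02, 11.17 and 11.17 in LPS+DMSO, and 9.19, 9.55, 9.61 and 9.42 in LPS+cordycepin. The conditions did not overlap, with LPS+cordycepin lowest.

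Gas5 probe 2 fell 2.30-fold with cordycepin at rest (log2 change -1.20 ± 0.11 (SE), 95% confidence interval -1.44 to -0.96, adjusted p = 1.46e-06, limma) and fell in LPS (-1.63 ± 0.11, -1.87 to -1.39, adjusted p = 4.62e-08). The difference between both changes (the interaction) did not pass (-0.43 ± 0.16, adjusted p = 0.395). LPS lowered it in cordycepin (-0.75 ± 0.11, adjusted p = 0.000369). In DMSO the change with LPS was -0.31 ± 0.11 (adjusted p = 0.0777), and it passed with the replicate number as a block (adjusted p = 0.0175).

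Gas5 probe 1 had log2 signals of 11.81, 12.09, 11.97 and 12.11 in DMSO, 11.23, 11.45, 11.64 and 11.49 in cordycepin, 11.55, 11.89, 11.98 and 11.97 in LPS+DMSO, and 10.87, 11.31, 11.23 and 10.90 in LPS+cordycepin. It was lower with cordycepin in every replicate pair. The log2 change was -0.54 ± 0.13 (SE) at rest (adjusted p = 0.00884, limma) and -0.77 ± 0.13 in LPS (adjusted p = 0.000423). Without replicate 2 or 4 the change at rest missed the threshold (adjusted p = 0.0565 and 0.061).

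Gas5 probe 3, nearest the 3′ end, had log2 signals of 12.90, 13.85, 13.30 and 13.30 in DMSO, 12.70, 12.70, 12.77 and 13.05 in cordycepin, 12.86, 12.90, 13.25 and 12.70 in LPS+DMSO, and 12.43, 12.23, 12.27 and 12.26 in LPS+cordycepin. DMSO replicate 2 was the highest array and DMSO and cordycepin overlapped. The log2 change was -0.53 ± 0.17 (SE) at rest (adjusted p = 0.0405, limma) and -0.63 ± 0.17 in LPS (adjusted p = 0.0128). The call at rest held in 8 of 20 leave-out fits, and was lost without replicate 2, 3 or 4 (adjusted p = 0.261, 0.16 and 0.0691) and with the replicate block (0.0513). In LPS it was lost without replicate 3 (adjusted p = 0.156).

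The fall at probe 2 was larger than at probes 1 and 3 in both comparisons, a difference that was noticed in these values and was not tested. The Gas5 strand holds 4 other fitted probes that the array design places in unnamed units. The 2 that lie between probes 2 and 3 fell with cordycepin at rest (log2 change -0.50 and -0.49) and in LPS (-0.56 and -0.61, highest adjusted p = 0.000714, limma). The 2 near the first base of the unit fell with LPS (-0.83 and -0.78, adjusted p = 0.0157 and 0.00273). Both were dim, above background on 3 of 4 cordycepin arrays and on 3 and 2 of 4 LPS+cordycepin arrays. They passed the filter through DMSO and LPS+DMSO, where they are brighter, so that their changes with cordycepin are not counted. With normexp neither change with LPS was called (-0.42 and -0.52, adjusted p = 0.109 and 0.166), nor was it in the authors' value table (-0.36 and -0.51, adjusted p = 0.505 and 0.0787) or with spike-in scaling (adjusted p = 0.393 and 0.407). The first was called in 16 of 20 leave-out fits, lost without replicate 1, 2 or 4 or LPS+DMSO replicate 1 (highest adjusted p = 0.0706), and the other in all 20. Of 10 probes on the opposite strand 3 were fitted, and none changed.

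**Figure D4:**
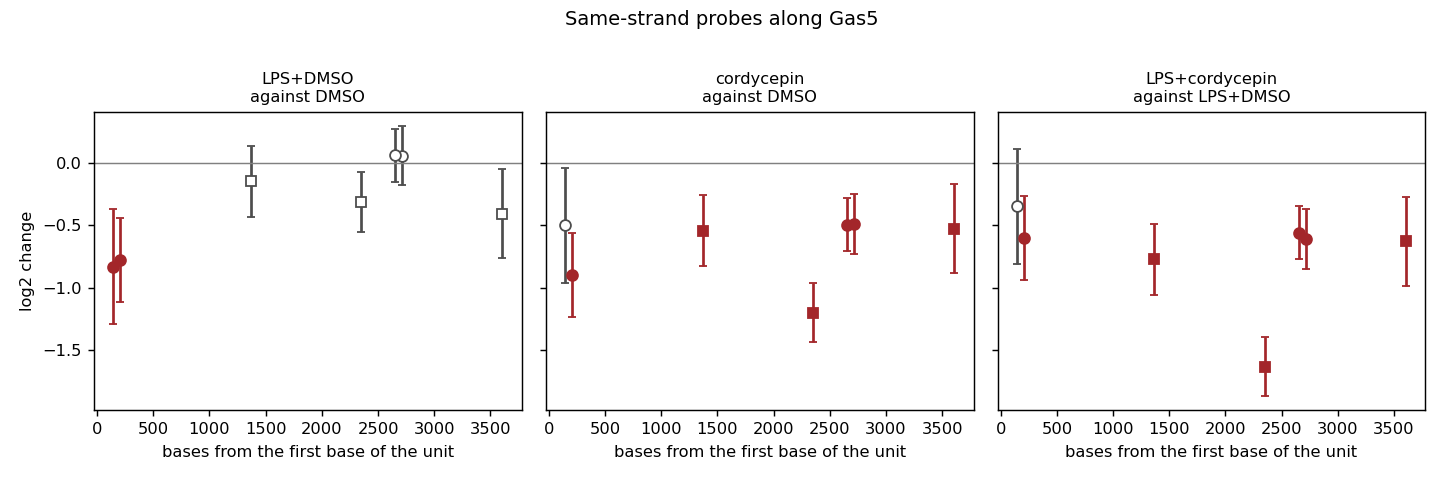
The log2 change (y axis) of 7 probes on the Gas5 strand is plotted against the distance in bases from the first base of the unit given by the array design (x axis), for LPS, cordycepin at rest and cordycepin in LPS. Squares are the 3 Gas5 probes, circles other probes, filled red symbols changes called and bars 95% confidence intervals. Calls with cordycepin of the dim probes near the first base are drawn but not counted in the text. The lowest point with cordycepin is Gas5 probe 2, at -1.20 at rest and -1.63 in LPS.

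Snhg5 fell in all 4 comparisons between conditions. Its log2 signal was 8.20, 8.22, 8.17 and 7.92 in DMSO, 7.34, 7.63, 7.41 and 7.53 in cordycepin, 6.96, 7.09, 7.28 and 7.29 in LPS+DMSO, and 6.75, 5.88, 5.62 and 5.52 in LPS+cordycepin. The conditions did not overlap, with DMSO highest and LPS+cordycepin lowest.

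With LPS the log2 change of Snhg5 was -0.97 ± 0.20 (SE) (95% confidence interval -1.40 to -0.54, adjusted p = 0.00359, limma), and with LPS in cordycepin it was -1.53 ± 0.20 (adjusted p = 0.000113). With cordycepin it was -1.21 ± 0.20 in LPS (-1.64 to -0.78, adjusted p = 0.000328), by -0.71 on slide 1 and -1.71 on slide 2. At rest it was -0.65 ± 0.20 (adjusted p = 0.0381), a call that held in 10 of 20 leave-out fits and was lost without replicate 2, 3 or 4 (adjusted p = 0.138, 0.192 and 0.064). Snhg5 was well above background on all 16 arrays but low in signal in LPS+cordycepin, and under another background correction (normexp) the change with cordycepin was -0.42 in LPS (adjusted p = 0.237) and -0.51 at rest (0.152), and that with LPS in cordycepin -0.64 (0.114).

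Snhg12 fell with cordycepin in LPS-treated cells. Its log2 signal was 12.20, 12.08, 12.26 and 11.98 in LPS+DMSO and 11.57, 11.45, 11.29 and 11.48 in LPS+cordycepin, and 11.82, 12.43, 11.97 and 12.11 in DMSO and 11.84, 11.94, 11.89 and 11.93 in cordycepin. LPS+cordycepin lay below the 3 other conditions, which overlapped.

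Cordycepin in LPS lowered Snhg12 1.61-fold (log2 change -0.68 ± 0.12 (SE), 95% confidence interval -0.93 to -0.43, adjusted p = 0.00041, limma), and this call held in all 20 leave-out fits. At rest the change was -0.18 ± 0.12 (-0.43 to 0.07, adjusted p = 0.343), and the difference between the cordycepin changes with and without LPS did not pass (-0.50 ± 0.17, adjusted p = 0.305). LPS in cordycepin lowered Snhg12 (-0.45 ± 0.12, adjusted p = 0.0251), a call lost in 7 of those 20 fits, among them those without replicate 1, 3 or 4 (adjusted p = 0.0507, 0.223 and 0.145).

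Snhg3 was higher with cordycepin on most arrays, but the change did not pass. Its log2 signal was 12.62, 12.61, 12.67 and 12.54 in DMSO and 13.59, 13.66, 13.09 and 13.71 in cordycepin. It was 12.69, 12.64, 12.84 and 12.49 in LPS+DMSO and 13.65, 13.50, 11.56 and 13.40 in LPS+cordycepin. Cordycepin lay above DMSO without overlap, and in LPS replicate 3 went against the other 3.

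At rest the log2 change of Snhg3 was 0.91 ± 0.33 (SE) (95% confidence interval 0.19 to 1.62, adjusted p = 0.0819, limma). In LPS it was 0.36 ± 0.33 (-0.35 to 1.07, adjusted p = 0.556). Without LPS+cordycepin replicate 3 both passed, at 0.91 (adjusted p = 0.000142) and 0.85 (adjusted p = 0.000422), since that array also sets the spread used at rest. The change at rest also passed in a fit of only DMSO and cordycepin (adjusted p = 0.00217). Snhg3 has 1 spot on each array. That array had 237 spots marked as outliers, the most of any, where the others had 108 to 201, and the Snhg3 spot was not among them. The part of this in the low value was not tested.

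Snhg1 changed in no comparison. Its log2 signal was 11.07, 11.61, 11.06 and 11.20 in DMSO, 11.43, 11.59, 11.29 and 11.38 in cordycepin, 11.13, 11.08, 11.30 and 11.08 in LPS+DMSO, and 11.13, 11.17, 10.98 and 10.64 in LPS+cordycepin. The largest difference was that of LPS in cordycepin (log2 change -0.44 ± 0.14 (SE), 95% confidence interval -0.74 to -0.15, adjusted p = 0.0674, limma), which passed with a block for the replicate number (adjusted p = 0.0445) or for the slide (0.04). With cordycepin at rest the change was 0.19 ± 0.14 (-0.11 to 0.48, adjusted p = 0.428).

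**Figure D5:**
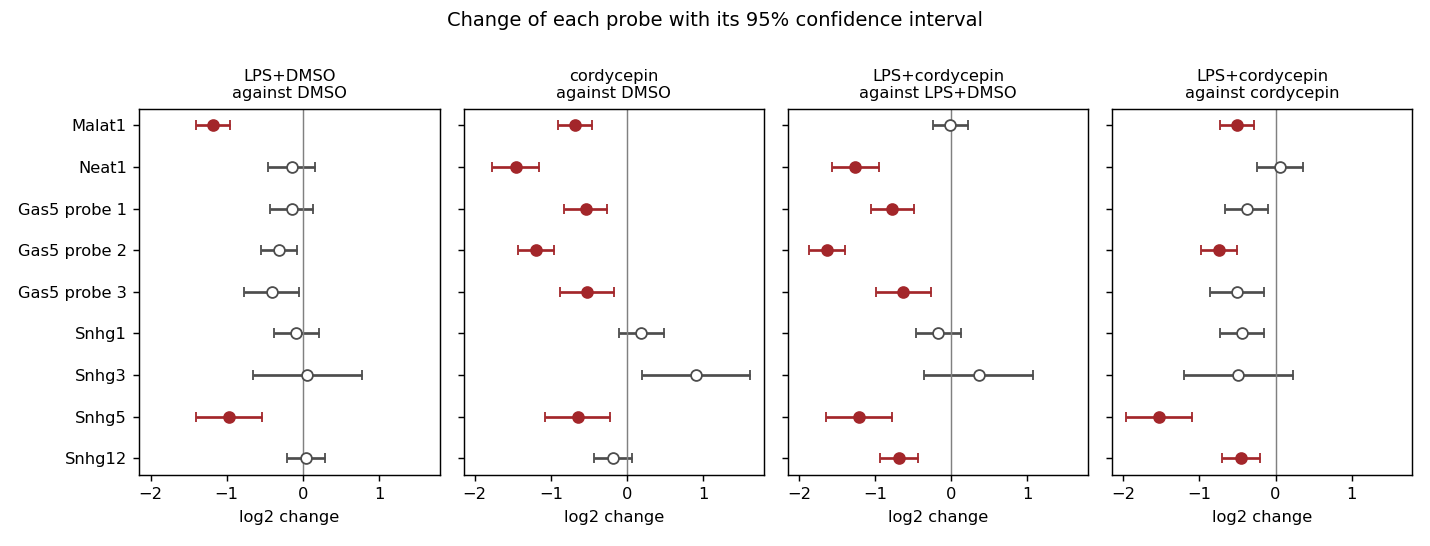
The log2 change (x axis) of each of the 9 probes (y axis) is plotted for 4 comparisons, with bars for the 95% confidence interval and filled red points for changes called. The called points all lie below 0, with Gas5 probe 2 at -1.63 in LPS+cordycepin against LPS+DMSO and Snhg3 at 0.91 with an interval of 0.19 to 1.62 at rest.

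The counts in the gene lists that follow stand beside the shares over all probes given above, which were 5.03% rising and 9.39% falling with LPS, 9.71% and 7.05% with cordycepin at rest, and 12.0% and 8.18% with cordycepin in LPS. The medians over all probes were -0.04, 0.04 and 0.03 on the log2 scale. Other snoRNA host noncoding RNAs, from a list of 16, moved both ways. Of 9 probes fitted for 8 of them, 2 rose and 1 fell with cordycepin at rest (median log2 change 0.11 beside 0.04 over all probes), 2 rose and 3 fell in LPS (-0.01 beside 0.03), and 3 rose and 2 fell with LPS (0.09 beside -0.04). Dancr, a snoRNA host named for holding back differentiation, rose with cordycepin at rest (1.95 ± 0.12 (SE), adjusted p = 3.56e-08, limma) and in LPS (2.05 ± 0.12, adjusted p = 1.47e-08). Snhg10 rose with cordycepin (1.15 ± 0.13 and 0.76 ± 0.13, adjusted p = 1.07e-05 and 0.000469) and fell with LPS (-0.74 ± 0.13, adjusted p = 0.00108). Snhg17, named 9430008C03Rik on the array, fell with cordycepin (-0.55 ± 0.11 and -0.74 ± 0.11, adjusted p = 0.00199 and 0.000109). Snhg16 (1810032O08Rik) rose with LPS at both its probes (0.51 ± 0.15 and 0.42 ± 0.09, adjusted p = 0.0308 and 0.00461), and the first of them fell with cordycepin in LPS (-0.55 ± 0.15, adjusted p = 0.0141). Zfas1 (1500012F01Rik) fell with LPS (-0.34 ± 0.10, adjusted p = 0.027) and with cordycepin in LPS (-0.30 ± 0.10, adjusted p = 0.039).

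Among 36 probes of 18 protein-coding snoRNA hosts, most of them genes of ribosomal proteins and ribosome assembly, 1 rose and none fell with cordycepin at rest, and 1 rose and 1 fell in LPS. The rise was that of Ncl, which encodes nucleolin (0.77 ± 0.12 at rest and 0.53 ± 0.12 in LPS, SE, adjusted p = 0.000151 and 0.00303, limma), and the fall that of Taf1d (-0.33 ± 0.11, adjusted p = 0.0447). With LPS 6 rose and 1 fell, led by the chaperone Hspa8 (0.64 ± 0.16, adjusted p = 0.0143) and Nop58 (0.53 ± 0.16, adjusted p = 0.0355), while Rps3 fell (-0.42 ± 0.13, adjusted p = 0.0412). The median log2 change of the 36 was 0.07 with LPS, 0.07 with cordycepin at rest and -0.03 in LPS.

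Of 17 probes for 13 proteins that bind or build snoRNPs, 3 rose and none fell with LPS, 2 rose and none fell with cordycepin at rest, and 1 rose and 1 fell in LPS, with median log2 changes of 0.22, 0.09 and -0.05. With LPS the rises took in Nop58, a core protein of C/D box snoRNPs, and Snu13 (0.38 ± 0.09 (SE), adjusted p = 0.0128, limma). With cordycepin Nufip1, an assembly factor, rose at rest (0.66 ± 0.13, adjusted p = 0.00162) and in LPS (0.80 ± 0.13, adjusted p = 0.000236). Another Snu13 probe rose at rest (0.27 ± 0.08, adjusted p = 0.0238) and Shq1 fell in LPS (-0.36 ± 0.12, adjusted p = 0.0376).

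Of 23 probes for 13 paraspeckle proteins, the partners of Neat1, none changed with LPS, 2 rose with cordycepin at rest and 1 in LPS. Tardbp, which encodes TDP-43, rose at 1 probe (1.19 ± 0.21 (SE) at rest and 1.34 ± 0.21 in LPS, adjusted p = 0.000766 and 0.000206, limma), and the chromatin remodeller Smarca4 rose at rest (0.32 ± 0.10, adjusted p = 0.0453). The median log2 change of the 23 was 0.18 with LPS, 0.11 with cordycepin at rest and 0.07 in LPS.

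Of 24 probes for 12 nuclear speckle proteins, where Malat1 resides, 4 rose with LPS and none fell, among them the splicing factors Srsf5 (0.64 ± 0.18 (SE), adjusted p = 0.0288, limma) and Srsf7 (0.41 ± 0.11, adjusted p = 0.0214). With cordycepin at rest 2 rose and 2 fell, and in LPS 1 rose and 3 fell. The median log2 change of the 24 was 0.23 with LPS, 0.11 with cordycepin at rest and -0.04 in LPS. Pnn rose (0.69 ± 0.13 and 0.86 ± 0.13, adjusted p = 0.00162 and 0.000177), Rnps1 rose at rest (0.30 ± 0.08, adjusted p = 0.0206) and Srsf5 fell in LPS (-0.68 ± 0.18, adjusted p = 0.0141). Son, a scaffold of the speckle, fell at the same probe in both (-0.68 ± 0.09 and -0.68 ± 0.09, adjusted p = 7.67e-05 and 6.32e-05). A second Son probe fell at rest (-0.42 ± 0.12, adjusted p = 0.0196). In LPS, where it was not among the 2 largest falls named, its mean log2 signal was 8.29 in LPS+DMSO and 7.81 in LPS+cordycepin.

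Of 14 probes for 13 factors of nonsense-mediated decay, none rose in these comparisons, 2 fell with LPS (Smg9, -0.57 ± 0.09 (SE), and Upf3b, -0.31 ± 0.09, adjusted p = 0.000243 and 0.0237, limma), 2 with cordycepin at rest (Smg6, -0.35 ± 0.11, and Casc3, -0.31 ± 0.09, adjusted p = 0.0469 and 0.0261) and 3 in LPS, among them Smg6 (-0.44 ± 0.11, adjusted p = 0.0106). The median log2 changes were -0.10, -0.08 and -0.04. Of 15 probes for 11 factors of RNase P, tRNase Z and the triple helix, which form and bind the Malat1 3′ end, none changed with LPS. With cordycepin Rpp21 rose (0.28 ± 0.09 at rest, 0.33 ± 0.09 and 0.28 ± 0.09 at 2 probes in LPS, adjusted p = 0.0455, 0.0151 and 0.0405), Rpp38 fell (-0.52 ± 0.11 and -0.46 ± 0.11, adjusted p = 0.00259 and 0.0054) and Pop7 fell at rest (-0.35 ± 0.10, adjusted p = 0.0163). The median log2 changes were 0.15 with LPS, 0.16 with cordycepin at rest and 0.07 in LPS.

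Of 13 probes for 8 other long noncoding RNAs, 2 rose with LPS, and 2 rose and 3 fell with cordycepin in either state. Pvt1 fell at 1 probe (-1.51 ± 0.09 (SE) at rest and -1.57 ± 0.09 in LPS, adjusted p = 1.69e-08 and 9.16e-09, limma) and rose at another in LPS (0.51 ± 0.16, adjusted p = 0.0309). Tug1 fell at 1 probe (-1.29 ± 0.14 and -1.29 ± 0.14, adjusted p = 8.87e-06 and 6.46e-06) and rose at another at rest (0.71 ± 0.21, adjusted p = 0.0294), and the first of these rose with LPS (0.68 ± 0.14, adjusted p = 0.00377). That first probe was dim in cordycepin (mean log2 signal 6.13, above background on 3 of 4 arrays) and passed the filter through the other conditions. Dleu2 rose with cordycepin, 2.14-fold at rest and 2.31-fold in LPS (adjusted p = 0.0247 and 0.0117) and Mir22hg rose with LPS (1.17 ± 0.37, adjusted p = 0.0483). The DMSO arrays of Mir22hg were widely spread, with an SD of 1.04 on the log2 scale against 0.43 in LPS+DMSO. The median log2 changes were -0.05 with LPS, -0.08 with cordycepin at rest and -0.11 in LPS.

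The nearest genes with a fitted probe on each side, by the order of the RefSeq table, were mostly not called. Each is given by its brightest fitted probe. Zbtb37, Syncrip, Zfp949 and Trnau1ap have further fitted probes that are not described here. Beside Neat1 lies Frmd8, which changed in none of the LPS and cordycepin comparisons (log2 changes -0.14 to 0.11). Beside Gas5 lies Zbtb37, which fell with LPS (-0.83 ± 0.19 (SE), adjusted p = 0.00659, limma) and did not change with cordycepin. Snhg5 lies between Syncrip, which fell with cordycepin at rest and in LPS (-0.45 ± 0.14 and -0.55 ± 0.14, adjusted p = 0.0344 and 0.00785), and Zfp949, which fell with LPS (-1.41 ± 0.20, adjusted p = 0.000143) and with LPS in cordycepin (-1.51 ± 0.20, adjusted p = 0.000119). Of the neighbours of Snhg1 (Slc3a2 and Wdr74), Snhg3 (Rcc1 and Phactr4) and Snhg12 (Taf12 and Trnau1ap), Phactr4 fell with cordycepin at rest (-0.38 ± 0.10, adjusted p = 0.0142) and none other changed.

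Over the 16 arrays and 10491 genes, each by its brightest probe, the genes most like Neat1 were Aar2 (Pearson r 0.99), Zgpat (0.98) and Zbtb9 (0.98), and those most like Malat1 were Susd3 (0.97), Hhex (0.96) and Tor4a (0.95). The most like Gas5 were Pik3r6 (0.97), Zfp768 (0.95) and Havcr2 (0.94), and the most like Snhg5 were Arl16 (0.96), Fgd3 (0.96) and Zfp955b (0.95). For Snhg12 they were 1110038B12Rik (0.94), Manbal (0.90) and Grpel2 (0.90), for Snhg3 Xiap (0.92), Rab8a (0.88) and Tspan5 (0.83), and for Snhg1 Stk19 (0.90), Arl2 (0.86) and Ddrgk1 (0.86). The arrays share 4 conditions, so any gene that follows them gives a high r, and the values are descriptions over arrays.

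snoRNA host genes are known for transcripts that begin with a run of C and T (a terminal oligopyrimidine start), and the start regions of the hosts measured here are shown for that reason. The windows hold 50 bases on each side of the RefSeq start, on GRCm38.p6, with capitals for the unbroken run of C and T that covers the start or the base beside it.
Gas5, chr1:161035116-161035215, plus strand: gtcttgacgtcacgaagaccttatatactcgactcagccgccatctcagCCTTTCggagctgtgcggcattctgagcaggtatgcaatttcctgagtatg
Snhg1, chr19:8723437-8723536, plus strand: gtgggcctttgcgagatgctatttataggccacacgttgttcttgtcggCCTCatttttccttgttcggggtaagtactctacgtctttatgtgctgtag
Snhg3, chr4:132353637-132353736, minus strand: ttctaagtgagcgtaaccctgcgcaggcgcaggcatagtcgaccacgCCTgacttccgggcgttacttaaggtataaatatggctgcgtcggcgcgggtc
Snhg5, chr9:88522848-88522947, minus strand: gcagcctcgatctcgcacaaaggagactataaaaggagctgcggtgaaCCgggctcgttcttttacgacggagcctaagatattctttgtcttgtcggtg
Snhg12, chr4:132308628-132308727, plus strand: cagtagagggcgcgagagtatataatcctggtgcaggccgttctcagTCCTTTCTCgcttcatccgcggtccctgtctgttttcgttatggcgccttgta

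The run was 6 bases long in Gas5, 4 in Snhg1, 3 in Snhg3, 2 in Snhg5 and 9 in Snhg12. A run at least as long as that of Gas5 was found in 12.4% of 32851 start regions, and one at least as long as that of Snhg12 in 4.32%. For Snhg1, Snhg3 and Snhg5 these shares were 27.7%, 39.9% and 58.9%, and the median run over all start regions was 2 bases. For Gas5 the table holds a second start, upstream, with a run of 1 base. Of these 5 hosts Gas5, Snhg5 and Snhg12 were the ones called with cordycepin in LPS, and a link between the run and the calls was not tested. Only the run of C and T was searched, on the strand of the transcript.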

How the data were processed

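RNA of RAW264.7 cells was measured on 16 Agilent 1-colour mouse arrays, 4 per condition, with conditions and replicate numbers taken from the labels. Per the labels, cultures with the same replicate number share a collection day. The authors obtained the deposited intensity of each spot with Agilent Feature Extraction (10.10.1.1 in the submitters' processing notes, 10.7.3.1 in the file headers), which subtracts background and does not scale between arrays. A value table that the authors deposited, in log2 units, served as an alternative. The submitters' notes name limma beside Feature Extraction, and the normalization behind these values is not given in the sources used here.

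Spots marked as outliers were left out, spots of a probe were averaged (127 missing values), and log2 intensity was set relative to each array's 75th percentile, taken over the 18064 probes that every array detected well above background. A probe entered the fit if all 4 arrays of any condition detected it so (21597 of 55681), and all were fitted together with limma 3.58.1 in R 4.3.3. The test was limma's moderated test on condition means over all 16 arrays, with Benjamini-Hochberg adjustment over all probes fitted, and the procedure was tested on simulated data. A probe was called changed at an adjusted p under 0.05, and a second rule added a 2-fold minimum. Residuals of arrays sharing a replicate number correlated by a mean of 0.21 (-0.14 to 0.52, 18 of 24 pairs over 0.1), arrays of another number by 0.20 within a slide and by -0.20 between slides. As the labels tie the number to a day, blocked values stand beside a result where they change its call. The number of arrays limits the precision of every change.

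Named are every member probe, the 2 largest rises and 2 largest falls past the threshold in each gene list, the nearest gene with a fitted probe on each side, and the 3 genes most alike over the arrays. A few items that these rules name are not reported here. The members and gene lists were chosen with earlier results of these data known. Names were updated through the RefSeq table, and probe positions are those of the files (mm9). The alternatives were quantile, median and spike-in scaling, a percentile over all probes, no filter on dim probes and a stricter one, the authors' values, normexp (offset 50) as background correction, the brightest probe per gene, blocks for replicate and slide, an intensity trend with robust estimation, fits of only the groups compared, 2 other thresholds, and leave-out fits that drop a replicate number or a single array. Files were read and figures drawn in Python 3.11.15 (pandas 2.3.3, numpy 2.4.6, scipy 1.17.1, matplotlib 3.10.9).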

Additional observations from a re-analysis of the deposited data

Results flagged for a closer look

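In each of 36 groups of 4 arrays (9 member probes in 4 conditions), the farthest array was set against the other 3, and 2 groups held an array whose gap exceeded Dixon's critical value. Over 124 groups, which also take in the same-strand probes of the Malat1, Neat1 and Gas5 loci, there were 4, where chance flags about 1 in 20 groups.

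Snhg3 had a log2 signal of 11.56 in LPS+cordycepin replicate 3, against 13.40 to 13.65 in the other 3 replicates. Snhg5 had a log2 signal of 7.92 in DMSO replicate 4, against 8.17 to 8.22 in the other 3. A middle Malat1 probe (A_30_P01020935) read 14.09 in LPS+DMSO replicate 3, against 13.87 to 13.91. A probe near the first base of the Gas5 unit (A_30_P01029558) read 6.08 in LPS+DMSO replicate 4, against 6.25 to 6.27.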

How the results depend on the processing

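No alternative turned the direction of a member probe that passed the threshold in either setting. Of 1466 values of member probes recomputed under the alternatives, 1388 stayed on their side of the threshold, 60 lost a call and 18 gained one. Scaling to the 7 spiked-in control probes moved the median of all probes to -0.13 with LPS, to 0.11 and -0.12 with cordycepin at rest and in LPS, and to -0.36 for LPS in cordycepin, and left 1 member probe called with LPS (Malat1), 1 with cordycepin at rest (Neat1), 3 with cordycepin in LPS (Gas5, Neat1 and Snhg5) and 1 with LPS in cordycepin (Snhg5). Under this scaling 1150 probes were called with cordycepin at rest, 90.9% of them higher, against 58.0% of 3620 without it, and 1473 with cordycepin in LPS, 76.5% higher, against 59.5% of 4365. With no filter on dim probes, 3 member probes were called with cordycepin at rest and 2 with LPS in cordycepin. With the 2-fold minimum, 1 was called with LPS, 2 with cordycepin at rest, 3 with cordycepin in LPS and 1 with LPS in cordycepin. The slide block gave 1 interaction call (Malat1, adjusted p = 0.0469). The cause of each of these shifts was not tested, other than the larger number of probes tested without the filter and the minimum set by the 2-fold rule.

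Leaving out a replicate number or an array gave 2 to 4 member probes called with LPS, 3 to 6 with cordycepin at rest, 6 to 7 with cordycepin in LPS, 2 to 6 with LPS in cordycepin and 0 to 1 for the interaction. The count of 4 with LPS came without DMSO replicate 1, the counts of 3 at rest without replicate 2 or 4, the counts of 2 for LPS in cordycepin without replicate 3 or 4 and that of 6 without DMSO replicate 2, and the interaction call without LPS+cordycepin replicate 1 (Snhg5, adjusted p = 0.0496). With the replicate number as a block, Gas5 probe 2 was called lower with LPS (adjusted p = 0.0175), Gas5 probe 1 (0.0255) and Snhg1 (0.0445) were called lower with LPS in cordycepin, and Gas5 probe 3 at rest was not called (0.0513). This block changed no other call among the member probes. Low signals limit what can be said of Snhg5 in LPS+cordycepin, and of Snhg8 nothing was measured above background.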
